A study of Mus musculus with 14 samples.

Results

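Lamin C-only aortic intima was compared with intima of mice with wild-type Lmna to ask what the lack of lamin A does to the vessel lining when no progerin is made. The lamin C-only mice were Apoe-/-LmnaLCS/LCS, described by the submitters as making lamin C alone, and the wild-type Lmna mice were Apoe-/-Lmna+/+. Every mouse in the study thus also lacked apolipoprotein E. Each group had 4 pools, and these 8 libraries were chosen by genotype from the 14 of the series. The other 6 libraries entered the count filter, the scaling of levels and the estimate of the spread, and were used for comparison. They were 3 pools of Apoe-/-LmnaLCS/LCS SM22Cre mice (VSMC progerin) and 3 pools of Apoe-/-LmnaG609G/G609G mice (ubiquitous progerin). In VSMC progerin mice the SM22α promoter drives Cre, and progerin is meant to be made by vascular smooth muscle cells. A pool held the intima lysates of 12 to 14 mice of 1 genotype, so p-values measure the spread between pools and not between mice. The labels give no age, sex, strain or time of day of collection, nor any date that would show batches of collection. Of 22430 genes in the table, 14269 passed the count filter and were tested.

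Lamins A and C are made from the same gene, Lmna, by alternative splicing, and form the meshwork under the inner nuclear membrane that shapes the nucleus and holds chromatin at its edge. Lamin A is first made as prelamin A, which receives a farnesyl lipid and is then cut by the protease Zmpste24, whereas lamin C never carries the lipid. Progerin, the cause of Hutchinson-Gilford progeria, is a shortened prelamin A that keeps its farnesyl group. Mice that make lamin C alone are known to be largely healthy, and in this study they also serve as the control for progerin switched on by Cre.

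Library totals were 31701265 to 35692385 estimated counts in lamin C-only pools and 28242609 to 31978619 in wild-type Lmna pools. Genes with counts numbered 15135 to 15452 in lamin C-only pools and 14328 to 15233 in wild-type Lmna pools, of which pool 1 had 14328 and the other 3 had 15188 to 15233. That pool stood apart from the other 7 on the first principal component of the 8 libraries, at 67.1 against -18.3 to -4.33. Levels are given as CPM, counts brought to 1 common library total after correction by a factor per library (TMM, the trimmed mean of M-values), and they do not correct for gene length. Endothelial transcripts were abundant: the adhesion molecule gene Pecam1 stood at 10915 to 11948 CPM in lamin C-only pools and 11229 to 12190 CPM in wild-type Lmna pools.

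The intima of lamin C-only mice differed from that of wild-type Lmna mice in few genes. Arntl and Npas2, activators of the circadian clock, the basement membrane collagen gene Col18a1, the scaffold gene Akap12 and the matrix proteoglycan gene Vcan rose. The clock repressor Bhlhe41, the transcription factor Pou6f1, the secreted-protein gene Crispld2 and 4 mitochondrially encoded genes fell. At an adjusted p under 0.05 in the quasi-likelihood test of edgeR (Benjamini-Hochberg adjusted, as all adjusted p values here), 25 genes were called, 13 higher and 12 lower, which is 0.175% of the genes tested. The log2 fold change was at least 1 in size for 7 of them, 5 higher and 2 lower. At an unadjusted p under 0.05 there were 1052 genes, or 7.37%. The pools of the 2 genotypes did not overlap in level for 712 genes, or 4.99%, and all 25 called genes were among them. The calls rest on the same counts, so this lack of overlap is no separate support for them.

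Over all genes tested the median log2 fold change was -0.00014, and 49.9% of genes were on the higher side. The median standard error was 0.11 on the log2 scale. The 95% interval of the log2 fold change lay wholly within ±0.5 for 9435 genes (66.1%) and within ±1 for 11342 (79.5%). For the rest, changes of that size were not excluded at this depth and number of pools. Without wild-type Lmna pool 1 the test called 13 genes, 11 of them among the 25, and with only the 8 libraries in the fit it called 16, also with 11 among the 25. Over the 8 fits that each left out 1 pool, the number called ran from 8 to 45, and 5 of the 25 genes were called in all 8 of those fits: Arntl, Pou6f1, Col18a1, Igfbp7 and Crispld2.

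**Figure D1:**
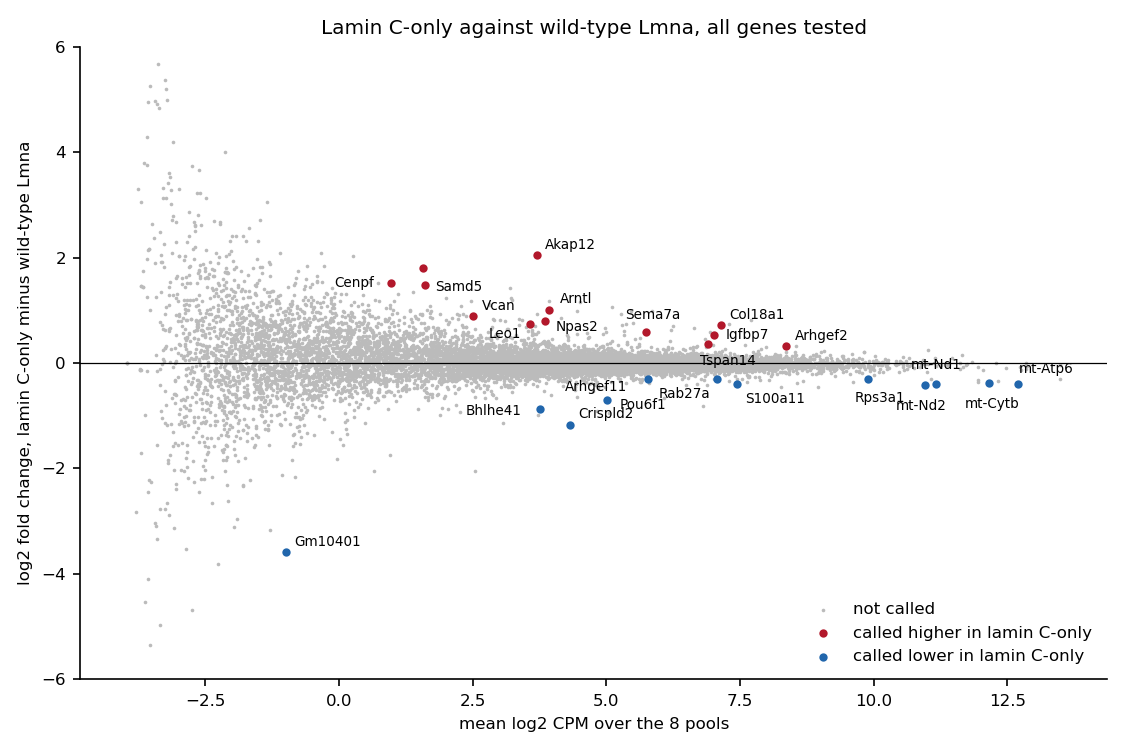
Each point is 1 of 14269 genes, with its mean log2 CPM over the 8 pools on the x axis and its log2 fold change, lamin C-only minus wild-type Lmna, on the y axis. The 25 called genes are coloured and 24 of them are named; the remaining genes lie about 0 and scatter more widely at low levels, where 12 points fall outside the axis limits of ±6.

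Lmna itself (ENSMUSG00000028063, GRCm38 chromosome 3, 88480147 to 88509956, minus strand) stood at 131, 142, 126 and 129 CPM in the lamin C-only pools and at 113, 121, 119 and 125 CPM in the wild-type Lmna pools. The ranges did not overlap, but the log2 fold change of 0.14 ± 0.06 (SE) did not pass the test (adjusted p = 0.62). Gene-level counts add lamin A and lamin C transcripts together and so do not check the allele. Apoe (ENSMUSG00000002985, chromosome 7, 19696109 to 19699188) gave 58.8 to 72.1 CPM in lamin C-only pools and 56.0 to 62.0 CPM in wild-type Lmna pools (log2 fold change 0.12, adjusted p = 0.82).

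None of the 27 tested genes of the nuclear lamina and envelope was called, with a median log2 fold change of 0.02, and 25 of the 27 intervals lay within ±0.5. Lmnb1 and Lmnb2, the genes of the B-type lamins, averaged 15.1 and 11.2 CPM in lamin C-only pools and 15.5 and 10.2 CPM in wild-type Lmna pools. Zmpste24, the prelamin A protease, was at 76.6 to 85.1 CPM in lamin C-only pools and 79.3 to 83.7 CPM in wild-type Lmna pools, with a 95% interval of the log2 fold change from -0.15 to 0.09. The lowest p values of the list belonged to Syne1, which encodes nesprin-1 of the bridge between nucleus and cytoskeleton (log2 fold change -0.26, adjusted p = 0.38), and Emd, which encodes the inner membrane protein emerin (-0.20, adjusted p = 0.38).

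Among circadian clock genes the activators Arntl and Npas2 rose, the repressor Bhlhe41 fell, and most other members had lower levels without passing the test. In the clock, the proteins of Arntl and its partner Clock, or the related Npas2, bind E-box DNA and switch on their own repressors, among them the Per and Cry genes, Bhlhe40, Bhlhe41 and Ciart. They also switch on Nr1d1 and Nr1d2, whose products repress Arntl, and the output factors Dbp, Tef and Hlf, which bind D-box DNA. Of 16 tested clock genes, 2 were called higher and 1 lower. At an unadjusted p under 0.05 there were 13 of 16, and 13 of 16 did not overlap between the genotypes, where all genes tested gave 7.37% and 4.99%. The median log2 fold change of the list was -0.34. The list was chosen with earlier results of these data known. The labels give no time of day of collection, and its part in the levels of clock genes was not tested.

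Upstream sequences of 4 of these genes are shown: that of Arntl, which has the smallest p, and, as examples of the motifs, those of 3 genes with lower levels that hold an E-box or a D-box. They are the RefSeq windows of up to 250 bases before the gene start on GRCm38.p6, cut back where they overlap the gene as GENCODE annotates it, on the strand of the gene and 5′ to 3′. Capitals mark the E-box CACGTG and the D-box TTATGTAA, and AGGTCA, the core of the element bound by the Nr1d and Ror proteins, was searched too, all on both strands. The windows are chr7:113207215-113207464 (plus strand) for Arntl, chr6:145865559-145865670 (minus strand) for Bhlhe41, chr3:95882252-95882478 (minus strand) for Ciart and chr4:151044666-151044915 (minus strand) for Per3.
Arntl: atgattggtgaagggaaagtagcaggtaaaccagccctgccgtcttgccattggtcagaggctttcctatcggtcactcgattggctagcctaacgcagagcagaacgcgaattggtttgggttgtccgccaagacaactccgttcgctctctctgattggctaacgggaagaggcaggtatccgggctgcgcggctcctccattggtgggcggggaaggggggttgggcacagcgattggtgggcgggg
Bhlhe41: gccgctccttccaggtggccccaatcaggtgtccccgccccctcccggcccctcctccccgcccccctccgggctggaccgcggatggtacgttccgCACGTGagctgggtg
Ciart: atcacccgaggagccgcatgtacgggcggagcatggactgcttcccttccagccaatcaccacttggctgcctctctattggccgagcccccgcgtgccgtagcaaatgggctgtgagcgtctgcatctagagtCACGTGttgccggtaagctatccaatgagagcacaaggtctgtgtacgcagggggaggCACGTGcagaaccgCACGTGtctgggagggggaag
Per3: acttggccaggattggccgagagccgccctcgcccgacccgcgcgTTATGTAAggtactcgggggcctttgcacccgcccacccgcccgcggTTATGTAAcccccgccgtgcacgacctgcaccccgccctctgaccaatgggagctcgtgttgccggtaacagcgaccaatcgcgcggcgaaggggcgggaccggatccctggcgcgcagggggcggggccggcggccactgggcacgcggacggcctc
The Ciart window held 3 E-boxes and that of Bhlhe41 held 1, the Per3 window held 2 D-boxes, and the Arntl window held none of the 3 motifs. Windows without any of them also belonged to Nr1d1, Dbp, Hlf and Cry2, whose levels were lower, so the printed windows do not set motif against direction. Of the 16 clock genes, 14 were in the promoter table. For the shares that follow, all windows of a gene were searched over their full 250 bases, without the cut where they overlap the gene. An E-box stood in the windows of 5 of the 14 (6.86% of all 27025 genes in the table), AGGTCA in 3 (15.8%) and the D-box in 1 (0.977%). These are matches of letters in short windows and do not show binding.

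Arntl (ENSMUSG00000055116, chromosome 7, 113207465 to 113314126) stood at 24.3, 22.4, 21.5 and 18.5 CPM in the lamin C-only pools and at 10.1, 11.7, 10.7 and 10.4 CPM in the wild-type Lmna pools. Every lamin C-only pool lay above every wild-type Lmna pool by a wide margin. The log2 fold change was 1.01 ± 0.13 (SE, adjusted p = 0.0034), the smallest p of all genes tested, and the call held in each of the 8 fits without 1 pool (highest adjusted p 0.023). Npas2 (ENSMUSG00000026077, chromosome 1, 39193731 to 39363236), whose protein can take the place of Clock, was at 19.9, 18.2, 20.8 and 17.99 CPM in lamin C-only pools, against 7.94, 11.3, 12.1 and 12.7 CPM in wild-type Lmna pools. The pools again did not overlap, with a log2 fold change of 0.81 ± 0.16 (adjusted p = 0.036). That call ended whichever of the 8 pools was left out, at adjusted p values of 0.052 to 0.16. Clock was at 47.8 to 61.4 CPM in lamin C-only pools and 44.6 to 58.7 CPM in wild-type Lmna pools and was not called (log2 fold change 0.15, adjusted p = 0.80).

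Bhlhe41 (ENSMUSG00000030256, chromosome 6, 145858243 to 145865558), which encodes a repressor that binds the same E-boxes, had 7.88, 11.3, 11.2 and 10.1 CPM in lamin C-only pools and 20.1, 14.6, 21.7 and 17.5 CPM in wild-type Lmna pools. It was lower in all 4 lamin C-only pools and fell by 0.87 on the log2 scale (SE 0.14, adjusted p = 0.013). The call ended without wild-type Lmna pool 3, at an adjusted p of 0.058. Its paralog Bhlhe40 gave 71.2 to 86.4 CPM in lamin C-only pools and 79.0 to 102 CPM in wild-type Lmna pools and was not called (-0.19, adjusted p = 0.60).

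The remaining members were not called, yet most lay on the lower side. Nr1d1, encoding the repressor REV-ERBα, was at 255, 286, 254 and 268 CPM in lamin C-only pools, against 409, 351, 395 and 293 CPM in wild-type Lmna pools (log2 fold change -0.45 ± 0.11, adjusted p = 0.11). Hlf was at 22.1, 24.3, 22.1 and 27.2 CPM in lamin C-only pools, against 46.5, 36.3, 51.4 and 51.1 CPM in wild-type Lmna pools (-0.95, adjusted p = 0.31). Dbp, with 76.8 to 95.5 CPM in lamin C-only pools and 125 to 177 CPM in wild-type Lmna pools, showed the same separation (-0.81, adjusted p = 0.36). With only the 8 libraries in the fit Hlf passed, at an adjusted p of 0.0047, and Dbp did not. The alternative tool DESeq2 called Nr1d1 (adjusted p = 0.0013) but not Hlf or Dbp (0.10 for both). Limma on the counts called Hlf (adjusted p = 0.031) but not Nr1d1 or Dbp (0.12 and 0.21).

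Among the Per genes, Per1 stood at 168 to 180 CPM in lamin C-only pools and 216 to 237 CPM in wild-type Lmna pools (log2 fold change -0.37, adjusted p = 0.25). Per2 stood at 45.8 to 59.4 CPM in lamin C-only pools and 74.2 to 113 CPM in wild-type Lmna pools (-0.66, adjusted p = 0.36). Per3, whose window is printed above, stood at 69.5 to 83.6 CPM in lamin C-only pools and 90.3 to 111 CPM in wild-type Lmna pools (-0.42, adjusted p = 0.40). In each of the 3 genes the genotypes did not overlap. Per1 and Per3 passed with only the 8 libraries in the fit, at adjusted p values of 0.011 and 0.044. DESeq2 called Per1 (adjusted p = 0.0175) but not Per2 or Per3 (0.11 and 0.056). Ciart, a repressor of the clock activators, was low, with 2.66 to 4.16 CPM in lamin C-only pools and 5.21 to 7.91 CPM in wild-type Lmna pools (-0.93, adjusted p = 0.25, and 0.032 in DESeq2). It lies 7.37 Mb from Lmna. Cry2, Nr1d2 and Tef had log2 fold changes of -0.21, -0.31 and -0.25 and did not overlap either, while Cry1 did (-0.14, adjusted p = 0.93).

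**Figure D2:**
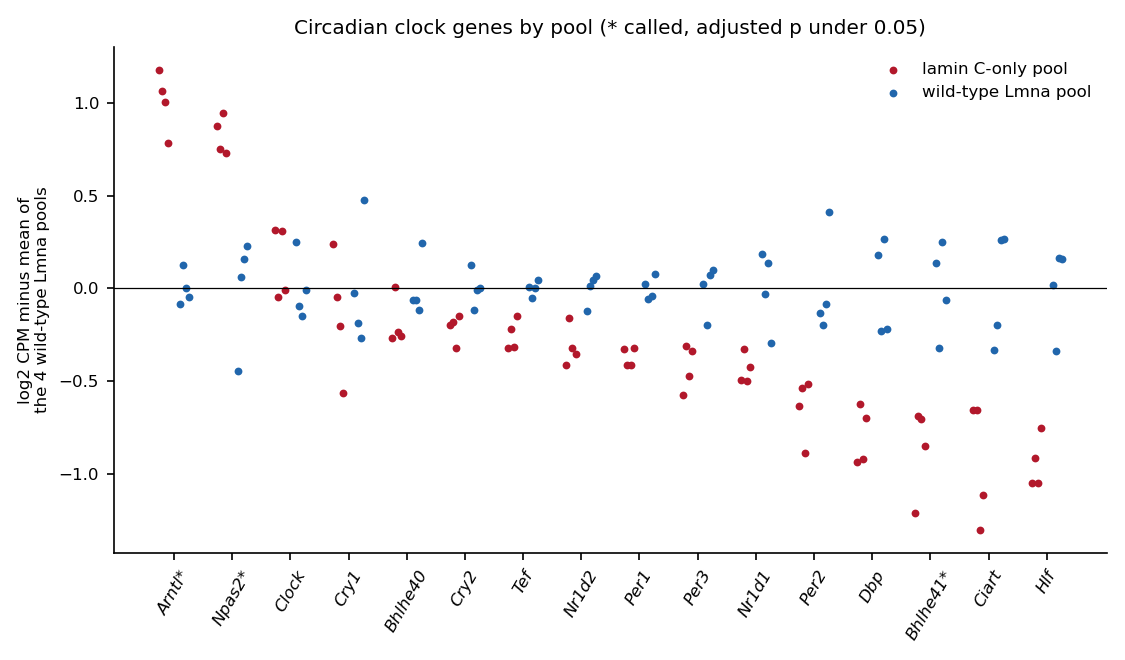
Log2 CPM of 16 circadian clock genes in each lamin C-only pool (red, left) and each wild-type Lmna pool (blue, right), as the difference from the mean of the 4 wild-type Lmna pools. Arntl and Npas2 lie above the wild-type Lmna pools in all 4 lamin C-only pools, and 11 genes from Cry2 to Hlf lie below them; an asterisk marks the 3 called genes.

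Of the collagen and other matrix lists, Col18a1 and Vcan were called, both higher. Col18a1 (ENSMUSG00000001435, chromosome 10, 77052178 to 77166548), the source of type XVIII collagen and of endostatin, was at 183, 169, 186 and 197 CPM in lamin C-only pools and 99.7, 143, 101 and 101 CPM in wild-type Lmna pools. Wild-type Lmna pool 2 lay between the other 3 of its group and the lamin C-only pools. The log2 fold change was 0.73 ± 0.10 (adjusted p = 0.0078), and the call held without each pool. Vcan (ENSMUSG00000021614, chromosome 13, 89655312 to 89742509), encoding the proteoglycan versican, had 9.28, 6.81, 8.49 and 6.62 CPM in lamin C-only pools and 5.60, 4.42, 3.45 and 3.37 CPM in wild-type Lmna pools. It rose by 0.89 ± 0.16 (adjusted p = 0.018), a call that ended in 4 of the 8 fits without 1 pool, namely without lamin C-only pool 1 or 3 or wild-type Lmna pool 3 or 4 (adjusted p 0.067 to 0.085).

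Among called genes of secreted proteins that are in neither list, Igfbp7 (ENSMUSG00000036256, chromosome 5, 77349240 to 77408041), which encodes a secreted protein of vessel basement membranes, was at 153, 167, 136 and 164 CPM in lamin C-only pools and 123, 104, 103 and 99.6 CPM in wild-type Lmna pools. Its log2 fold change was 0.53 ± 0.08 (adjusted p = 0.0095) and was called without each pool. Crispld2 (ENSMUSG00000031825, chromosome 8, 119992438 to 120052793), encoding a secreted glycoprotein, had 11.01, 11.7, 15.5 and 15.8 CPM in lamin C-only pools and 36.7, 20.7, 32.2 and 31.8 CPM in wild-type Lmna pools. It fell by 1.17 on the log2 scale (SE 0.17, adjusted p = 0.012), also without each pool. For Crispld2 and Col18a1 the call ended only with the 8 libraries alone in the fit, at an adjusted p of 0.065 for both.

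The calls in the collagen and matrix lists were 1 of 20 tested collagen genes (Col18a1) and 1 of 23 tested other matrix genes (Vcan), against 0.175% of all genes. Both lists were chosen with earlier results of these data known, so these shares do not show that matrix genes changed more often than others. The median log2 fold changes were 0.01 for the collagen list and -0.03 for the other matrix genes. Col8a1, a short-chain collagen of the subendothelial layer, was at 60.8, 56.3, 59.7 and 61.1 CPM in lamin C-only pools and 28.1, 47.4, 28.9 and 36.2 CPM in wild-type Lmna pools. It did not overlap but missed the threshold (log2 fold change 0.76, adjusted p = 0.065), and it passed without wild-type Lmna pool 2 (0.94, adjusted p = 0.00011). That pool had the highest level of its group. With all pools kept, DESeq2 and limma on the counts called Col8a1 (adjusted p = 2.8e-06 and 0.037). The fit of the 8 libraries alone did not (adjusted p = 0.096). Col4a1 and Col4a2, the main basement membrane chains, had log2 fold changes of 0.18 and 0.21 (adjusted p = 0.38 and 0.36). Fbn1, the gene of the microfibril protein fibrillin-1, was at 91.6 to 99.8 CPM in lamin C-only pools and 75.6 to 83.6 CPM in wild-type Lmna pools (0.28, adjusted p = 0.065). DESeq2 called Fbn1 (adjusted p = 0.0053), and limma on the counts did not (adjusted p = 0.055).

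The largest rise among called genes was that of Akap12 (ENSMUSG00000038587, chromosome 10, 4266380 to 4359470), whose product anchors protein kinase A and C. It had 16.6, 28.2, 37.1 and 25.8 CPM in lamin C-only pools and 6.77, 6.66, 5.73 and 6.86 CPM in wild-type Lmna pools. The lamin C-only pools spread more than 2-fold among themselves but all lay far above the 4 wild-type Lmna pools, and the log2 fold change was 2.05 ± 0.28 (adjusted p = 0.013). The call ended without wild-type Lmna pool 1, 3 or 4 (adjusted p 0.0502 to 0.059), with log2 fold changes of 1.85 to 2.22 over the 8 fits.

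Pou6f1 (ENSMUSG00000009739, chromosome 15, 100575318 to 100599984), a POU-domain transcription factor gene, had 24.7, 19.4, 29.8 and 27.8 CPM in lamin C-only pools and 45.3, 40.4, 42.3 and 38.6 CPM in wild-type Lmna pools. It fell by 0.71 on the log2 scale (SE 0.10, adjusted p = 0.0035) and was called without each pool. Sema7a (ENSMUSG00000038264, chromosome 9, 57940112 to 57962865), encoding a membrane-anchored semaphorin, had 63.9, 59.99, 72.4 and 66.5 CPM in lamin C-only pools and 37.1, 53.6, 38.6 and 45.2 CPM in wild-type Lmna pools (log2 fold change 0.59, adjusted p = 0.018). Leo1 (ENSMUSG00000042487, chromosome 9, 75441524 to 75466432), encoding a subunit of the PAF1 complex that acts in transcript elongation, had 15.3, 19.7, 14.1 and 13.5 CPM in lamin C-only pools and 6.94, 11.3, 8.72 and 10.2 CPM in wild-type Lmna pools (0.75, adjusted p = 0.025). In all 3 genes the genotypes did not overlap, as in every called gene. The Sema7a and Leo1 calls ended in 5 and 6 of the 8 fits without 1 pool.

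Smaller shifts were called in 2 trafficking and membrane genes. Rab27a (ENSMUSG00000032202, chromosome 9, 73044854 to 73097629), the gene of a GTPase of secretory granules, had 124, 121, 117 and 123 CPM in lamin C-only pools and 150, 140, 146 and 160 CPM in wild-type Lmna pools (log2 fold change -0.30, adjusted p = 0.018). Tspan14 (ENSMUSG00000037824, chromosome 14, 40906445 to 40966807), whose tetraspanin product escorts the protease ADAM10, had 139, 139, 148 and 119 CPM in lamin C-only pools and 97.5, 115, 101 and 112 CPM in wild-type Lmna pools (0.36, adjusted p = 0.036). These calls ended in 5 and 6 of the 8 fits without 1 pool.

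Called genes outside the naming rule, chosen after their values were seen, were Cenpf, Samd5 and Gm10401, all low. Cenpf (ENSMUSG00000026605, chromosome 1, 189640606 to 189688086), which encodes a kinetochore protein of dividing cells, had 3.69, 2.30, 3.50 and 3.71 CPM in lamin C-only pools and 0.78, 1.83, 1.01 and 0.98 CPM in wild-type Lmna pools (log2 fold change 1.51, adjusted p = 0.013). Samd5 (ENSMUSG00000060487, chromosome 10, 9622936 to 9675208) had 3.72 to 6.07 CPM in lamin C-only pools and 1.43 to 2.43 CPM in wild-type Lmna pools (1.48, adjusted p = 0.015). Gm10401 (ENSMUSG00000072693, chromosome 5, 115097689 to 115098295), a predicted gene, had 0.17, 0.03, 0.33 and 0 CPM in lamin C-only pools and 1.91, 1.28, 2.34 and 1.11 CPM in wild-type Lmna pools (-3.59, adjusted p = 0.023). Each of the 3 calls ended in at least 3 of the 8 fits without 1 pool.

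**Figure D3:**
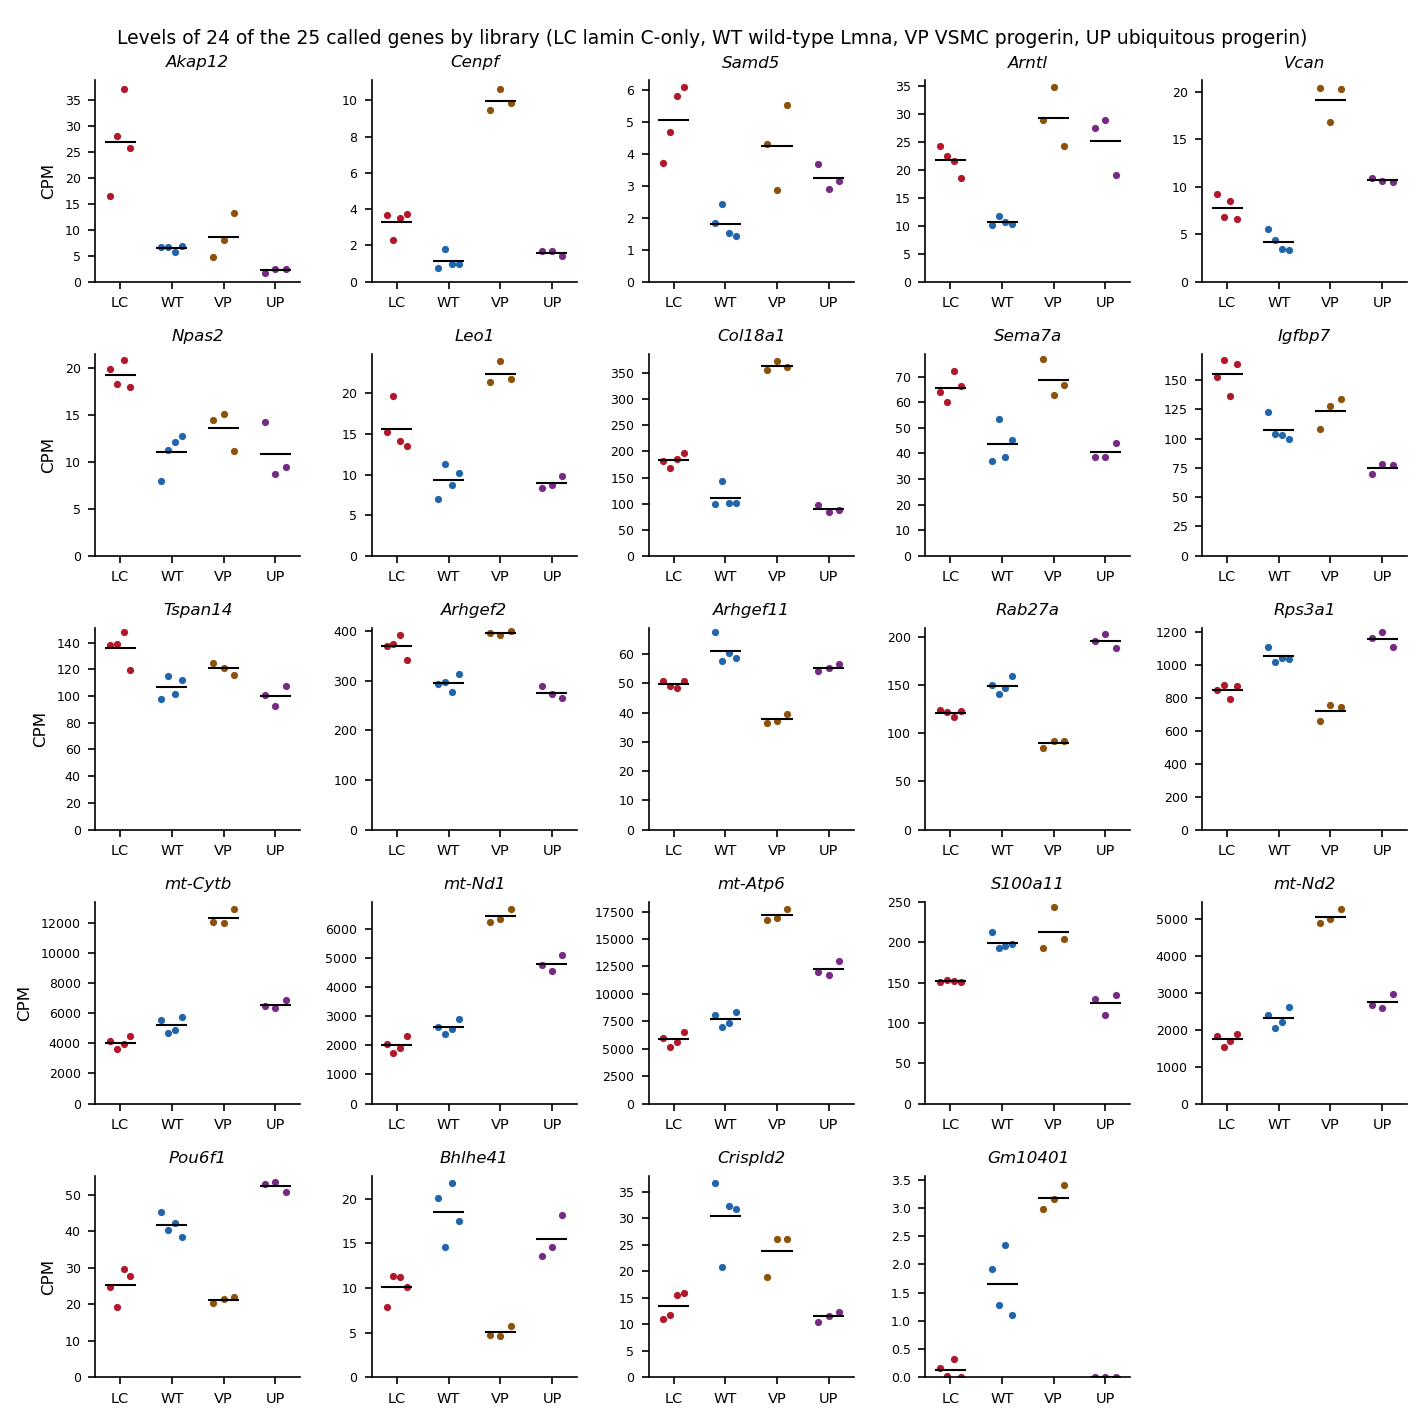
CPM of 24 of the 25 called genes in every library, ordered by log2 fold change, with a bar at the group mean; LC is lamin C-only, WT wild-type Lmna, VP VSMC progerin and UP ubiquitous progerin. In each gene the LC points lie on 1 side of all WT points, as at Akap12 (16.6 to 37.1 against 5.73 to 6.86 CPM), while VP and UP lie on either side.

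Messenger RNAs of the mitochondrial genome were all lower. The mitochondrial chromosome encodes 13 proteins, subunits of respiratory complexes I, III and IV and of ATP synthase, which are transcribed together from long precursors, so they are not independent of each other. All 13 had lower levels in lamin C-only pools, 13 at an unadjusted p under 0.05 (7.37% of all genes) and 4 called (0.175% of all genes), with log2 fold changes of -0.45 to -0.21 and a median of -0.36. The called members were mt-Atp6 (-0.39 ± 0.07, adjusted p = 0.016), mt-Nd2 (-0.41, adjusted p = 0.018), mt-Cytb (-0.37, adjusted p = 0.020) and mt-Nd1 (-0.39, adjusted p = 0.031). The ranges of the pools did not overlap for 9 of the 13, where 4.99% of all genes did not overlap.

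As an example, mt-Atp6, a subunit of ATP synthase (ENSMUSG00000064357, 7927 to 8607 on chromosome M), was at 5997, 5189, 5638 and 6547 CPM in lamin C-only pools and at 8103, 6946, 7316 and 8330 CPM in wild-type Lmna pools. The highest lamin C-only pool stood just under the lowest wild-type Lmna pool. mt-Nd1 and mt-Nd2 (2751 to 3707 and 3914 to 4951), subunits of complex I, averaged 2002 and 1739 CPM in lamin C-only pools and 2627 and 2312 CPM in wild-type Lmna pools. mt-Cytb (14145 to 15288), of complex III, averaged 4042 ± 343 CPM in lamin C-only pools and 5230 ± 521 CPM in wild-type Lmna pools (SD, n = 4 each). The mitochondrial share of all counts was 4.02% ± 0.45 in lamin C-only pools (3.53 to 4.61) and 5.01% ± 0.36 in wild-type Lmna pools (4.60 to 5.42; SD, n = 4 each).

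Each of the 4 mitochondrial calls ended in 4 to 6 of the 8 fits without 1 pool, with adjusted p values up to 0.15. With only the 8 libraries in the fit none of the 4 was called (adjusted p 0.068 to 0.0895). The alternative tools DESeq2 and limma on the counts called all 4, with adjusted p values up to 0.000155 and 0.027. The direction was the same in the 8 fits without 1 pool, with log2 fold changes between -0.47 and -0.32. Reads of mitochondrial genes can also match copies in the nuclear genome, and mt-Atp6 overlaps mt-Atp8, so the division of reads between them is a model's. Among nuclear genes of oxidative phosphorylation, 20 of 21 tested were on the higher side, none was called, and all 21 intervals lay within ±0.5 (median 0.09).

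Called genes were also counted by their distance from Lmna, since the alleles compared differ there. Of the 25, 5 lay within 10 Mb of Lmna on chromosome 3, among 241 tested genes of that window (2.07%), and none among the 353 tested genes of chromosome 3 beyond 20 Mb. On other chromosomes 20 of 13571 were called (0.147%). At an unadjusted p under 0.05 the shares were 48 of 241 (19.9%) within 10 Mb and 7.10% on other chromosomes. The labels do not give the strain in which each allele was made or the number of backcrosses, and its part in these calls was not tested.

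Arhgef2 (ENSMUSG00000028059, 88605966 to 88648052), encoding the microtubule-bound RhoA activator GEF-H1, starts 96.0 kb from the start of Lmna. It had 370, 374, 392 and 342 CPM in lamin C-only pools and 293, 298, 277 and 314 CPM in wild-type Lmna pools (log2 fold change 0.32, adjusted p = 0.013). Arhgef11 (ENSMUSG00000041977, 87617559 to 87738034), encoding another RhoA activator, starts 0.89 Mb away on the other side and had 50.8, 49.0, 48.6 and 50.8 CPM in lamin C-only pools and 67.5, 57.8, 60.6 and 58.7 CPM in wild-type Lmna pools (-0.30, adjusted p = 0.045). The 2 exchange factor genes thus moved in opposite directions. The Arhgef2 call ended without lamin C-only pool 3 or wild-type Lmna pool 3, and that of Arhgef11 in 7 of the 8 fits without 1 pool (adjusted p up to 0.18).

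S100a11 (ENSMUSG00000027907, 93520488 to 93526287), a calcium-binding protein gene at 5.01 Mb, had 151, 153, 152 and 150 CPM in lamin C-only pools and 213, 193, 195 and 198 CPM in wild-type Lmna pools (log2 fold change -0.40, adjusted p = 0.018). Rps3a1 (ENSMUSG00000028081, 86137940 to 86142702), a ribosomal protein gene 2.37 Mb away, had 848, 881, 797 and 870 CPM in lamin C-only pools and 1107, 1019, 1045 and 1037 CPM in wild-type Lmna pools (-0.31, adjusted p = 0.017). Ribosomal protein genes are known for processed copies in the genome, and whether reads of such copies enter its count was not tested. None of the 23 cytosolic ribosomal protein genes of the list was called, and their median was -0.03.

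The S100a11 and Rps3a1 calls ended in 6 and 4 of the 8 fits without 1 pool. Next below the threshold in the window were H2bc21, a histone gene (-0.40), and S100a4, a gene often used as a fibroblast marker (0.47), both with an adjusted p of 0.065.

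**Figure D4:**
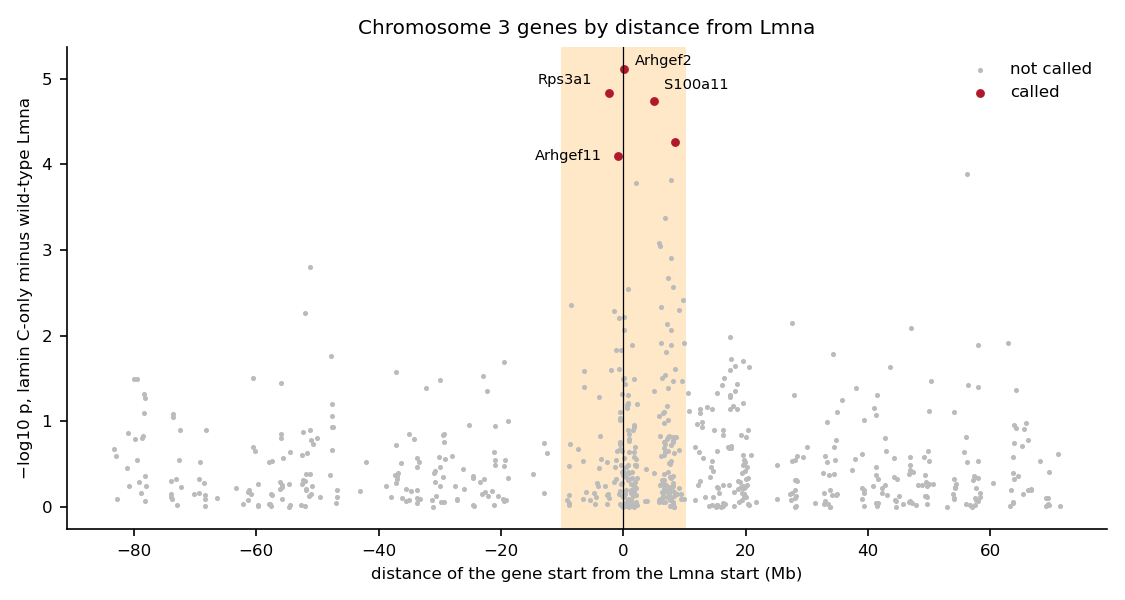
Tested genes of chromosome 3 by the distance of their start from that of Lmna, in Mb, with the negative log10 of the unadjusted p on the y axis and the 10 Mb window shaded. The 5 called genes of the chromosome, in red and 4 of them named, all lie in the shaded window.

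The comparison of VSMC progerin with ubiquitous progerin shares no library with that of lamin C-only with wild-type Lmna, and its VSMC progerin side carries the same LCS alleles. It differs also in which cells make progerin, and its ubiquitous progerin side carries G609G alleles of Lmna in place of wild-type Lmna. In this comparison of the progerin groups 56.3% of all genes were called. Of the 25 genes, 18 (72.0%) had the same direction in both comparisons, 15 of them called there, and the other 7 were called in the opposite direction; over all genes tested 55.9% had the same direction. Within 10 Mb of Lmna, 40 of the 48 genes with an unadjusted p under 0.05 had the same direction (83.3%), and elsewhere 629 of 1004 (62.6%). The share over all tested genes of that window was not computed, and the part of the G609G alleles in these shares was not tested. The log2 differences between the progerin groups were 0.53 for Arhgef2, -0.56 for Arhgef11 and -0.68 for Rps3a1, of the same sign as in the comparison of lamin C-only with wild-type Lmna, but 0.78 for S100a11, in which the sign was turned. Arntl and Npas2 differed there by 0.22 and 0.33 (adjusted p = 0.20 and 0.13), and Bhlhe41 by -1.61 (adjusted p = 1.5e-07).

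The progerin comparisons use the lamin C-only and wild-type Lmna pools as their own controls, so their values are set beside these only side by side. The test called 5988 genes (42.0%) in VSMC progerin against lamin C-only and 7784 (54.6%) in ubiquitous progerin against wild-type Lmna, against 0.175% here. For Col18a1 the log2 fold change was 0.73 in lamin C-only against wild-type Lmna, 0.98 in VSMC progerin against lamin C-only and -0.31 in ubiquitous progerin against wild-type Lmna. For Vcan the 3 values were 0.89, 1.29 and 1.34, and for Akap12 they were 2.05, -1.63 and -1.56. For Arntl they were 1.01, 0.44 and 1.23, all called. For mt-Atp6 they were -0.39, 1.55 and 0.67.

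Cell identity genes did not pass the test. None of 24 tested endothelial identity genes was called, their median log2 fold change was -0.01, and all 24 intervals lay within ±0.5. The junction gene Cdh5 averaged 1075 CPM in lamin C-only pools and 1094 CPM in wild-type Lmna pools. Vwf, the gene of von Willebrand factor, had a log2 fold change of -0.13 (adjusted p = 0.56), and Sox18, an endothelial transcription factor gene, of 0.18 (adjusted p = 0.49). Among 19 tested smooth muscle contractile genes none was called either (median -0.12), and only 7 of their intervals lay within ±0.5. Acta2 was at 131 to 203 CPM in lamin C-only pools and 159 to 318 CPM in wild-type Lmna pools, and Tagln at 165 to 244 CPM in lamin C-only pools and 208 to 360 CPM in wild-type Lmna pools. In these bulk lysates fewer cells of a type and less RNA per cell cannot be told apart.

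Of 20 tested genes of mesenchymal transition, 14 were on the higher side and none was called (median 0.07). Vim was at 3246 to 3573 CPM in lamin C-only pools and 2953 to 3297 CPM in wild-type Lmna pools (log2 fold change 0.16, adjusted p = 0.36). None was called of 22 genes of TGF-beta signalling (median -0.04), 20 of YAP and TEAD targets (-0.05), 22 of SRF and MRTF targets (-0.03), 22 of the interferon response (0.03) and 16 of p53 targets and growth arrest (0.05). Among SRF-linked genes, Actn1, encoding the actin cross-linker alpha-actinin-1, had -0.20 (adjusted p = 0.25) and Srf itself -0.27 (adjusted p = 0.36). In the cell cycle list 15 of 20 genes were on the higher side with none called (median 0.25), led in p by Ccnb1, the cyclin B1 gene, at 0.67 to 1.37 CPM in lamin C-only pools and 0.26 to 0.57 CPM in wild-type Lmna pools (adjusted p = 0.28).

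Markers of cells that can be carried along with the intima were tested as lists, and none of their genes was called. DESeq2 called the striated muscle markers Myh6 and Tnnt2, both lower (log2 fold change -3.23 and -2.18, adjusted p = 0.0039 and 0.0032). The median log2 fold change was 0.78 for adipocyte, 0.31 for macrophage, 0.15 for fibroblast and 0.07 for lymphocyte markers. For lymphatic endothelial, striated muscle and erythroid markers it was 1.99, -1.58 and 0.70. All 12 adipocyte markers were on the higher side, and their summed level was 200 to 938 CPM in lamin C-only pools and 209 to 305 CPM in wild-type Lmna pools, with the highest sum in lamin C-only pool 4. Of 20 macrophage markers 18 were on the higher side, with sums of 138 to 528 CPM in lamin C-only pools and 160 to 287 CPM in wild-type Lmna pools. The 15 tested fibroblast markers summed to 2364 to 2800 CPM in lamin C-only pools and 2350 to 2569 CPM in wild-type Lmna pools, and the 8 tested lymphocyte markers to 2.60 to 5.48 CPM in lamin C-only pools and 2.96 to 4.57 CPM in wild-type Lmna pools. The 8 tested lymphatic endothelial markers were all on the higher side, 4 at an unadjusted p under 0.05 (50%, against 7.37% of all genes tested). They summed to 77.7 to 95.1 CPM in lamin C-only pools and 74.2 to 81.2 CPM in wild-type Lmna pools, and all but Flt4 and Lyve1 averaged under 2 CPM. Of 9 tested striated muscle markers 7 were on the lower side, and 4 of the 9 had an unadjusted p under 0.05 (44.4%, against 7.37% of all genes tested). The ranges of 5 did not overlap, where 4.99% of all genes did not overlap. Their sums were 6.77 to 8.32 CPM in lamin C-only pools and 8.46 to 15.8 CPM in wild-type Lmna pools for the 9 tested markers. The 5 tested erythroid markers were all on the higher side, with sums of 312 to 586 CPM in lamin C-only pools and 124 to 347 CPM in wild-type Lmna pools. All 4 Y-linked genes had higher levels, with sums of 77.0 to 151 CPM in lamin C-only pools and 61.7 to 92.1 CPM in wild-type Lmna pools, and the share of males per pool is not in the labels. The part of these cell types and of sex in the results above was not tested. Without lamin C-only pool 4 the test called 29 genes, 23 of them among the 25.

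**Figure D5:**
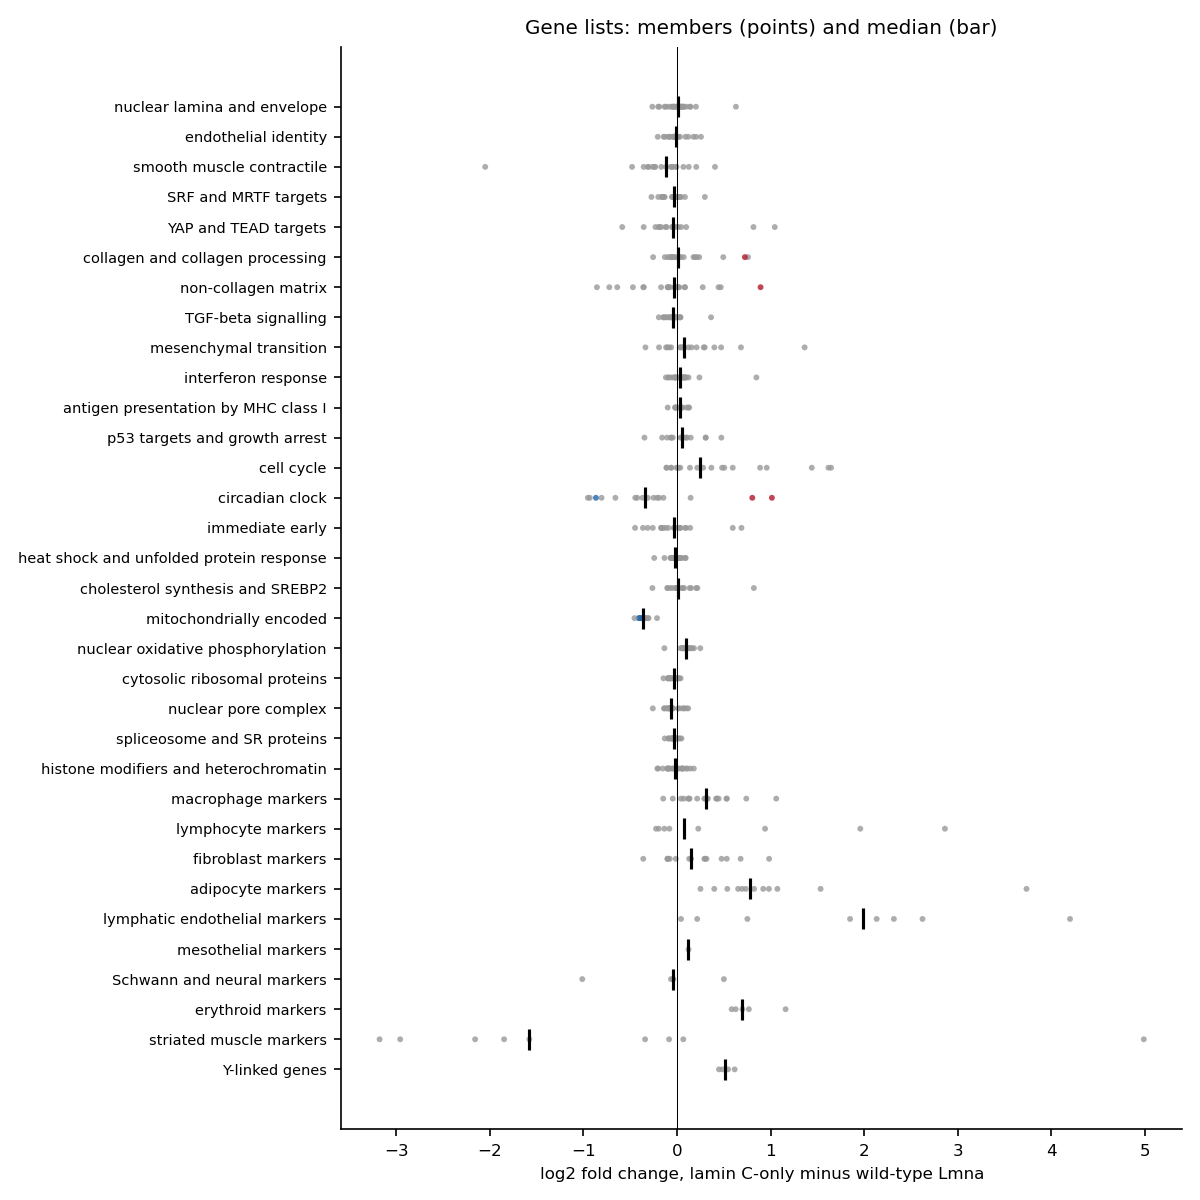
Log2 fold change, lamin C-only minus wild-type Lmna, of the tested members of 33 gene lists (points) with the list median (bar); called genes are red where higher and blue where lower. Called genes occur in 4 lists, those of the circadian clock, mitochondrially encoded genes, collagens and other matrix genes, and 29 lists have none.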

How the data were processed

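Per the labels' protocols, thoracic aortas freed of fat and arch were flushed with QIAzol to lyse the intima, and polyadenylated RNA from 100 ng per pool was made into directional libraries. The authors deposited expected counts per gene from RSEM, which divides shared reads among transcripts, and a table of log2 values, used here as an alternative. STAR 2.7.10b, RSEM 1.2.28, Trim Galore 0.6.10, cutadapt 4.1 and limma are listed, with GRCm38, in the submitters' processing notes. Annotation and strand setting: not given in the sources used here. Positions came from GENCODE M21, which matched 22388 of 22430 identifiers.

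Expected counts were rounded. The filter was filterByExpr of edgeR with the 4 groups (count 10, total 15, share 0.7). All 14 libraries entered 1 fit with a mean per group in edgeR 4.0.16 under R 4.3.3 (quasi-likelihood, robust), and p-values were adjusted by Benjamini-Hochberg over all genes tested. SE was taken as the size of the log2 fold change over the root of the F statistic. The prior count for log2 CPM was 2, and TMM stands for the trimmed mean of M-values. Intervals are 95% and do not cover errors in dividing reads. The code was tested on simulated data.

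Named called genes are those with the largest change or smallest p among genes of mean log2 CPM of at least 2 whose groups do not overlap, those within 10 Mb of Lmna, and called list members; 22 of 25 met the rule, and 1 of these is not reported here. Other named genes are list members or neighbours of Lmna chosen after their values were seen. The members and the 33 lists (4 to 27 genes) were chosen with earlier results of these data known. Alternatives were RLE size factors, DESeq2 1.42.0, limma 3.58.1 on the counts (voom) and on the deposited log2 values, other count filters, the 8 libraries alone, a replicate block and each pool left out.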

Additional observations from a re-analysis of the deposited data

Results flagged for a closer look

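Each pool was compared with the other 3 of its group by the gap to its nearest neighbour over the whole range. Of 220 groups of 4 values examined, 10 (4.55%) passed Dixon's 95% critical value for 4 values, where chance gives about 1 in 20. Wild-type Lmna pool 1 had counts for 14328 genes, against 15188 to 15233 in the other 3 wild-type Lmna pools, and its Vim level of 3297 CPM stood above 2953 to 3012 CPM. Wild-type Lmna pool 2 had 143 CPM of Col18a1, against 99.7 to 101 CPM. Wild-type Lmna pool 4 had 113 CPM of Per2, against 74.2 to 80.2 CPM, 102 CPM of Bhlhe40, against 79.0 to 82.2 CPM, and a summed 2569 CPM of fibroblast markers, against 2350 to 2381 CPM. Lamin C-only pool 2 had 2.30 CPM of Cenpf, against 3.50 to 3.71 CPM, and 86.4 CPM of Bhlhe40, against 71.2 to 72.9 CPM. Lamin C-only pool 3 had a summed 1309 CPM of interferon response genes, against 1091 to 1124 CPM, and lamin C-only pool 4 a summed 2800 CPM of fibroblast markers, against 2364 to 2428 CPM.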

How the results depend on the processing

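No called gene changed direction under any of the 16 alternatives, and Arntl, Pou6f1 and Igfbp7 were called in all of them. DESeq2 called 103 genes, 58 higher and 45 lower, 29 with a log2 fold change of 1 or more in size and 10 within 10 Mb of Lmna; all 25 were among them. Without a filter on low counts 23 genes were called higher. Limma on the deposited log2 values called 3 genes within 10 Mb of Lmna. With only the 8 libraries in the fit 16 genes were called, 8 of them higher, 3 with a log2 fold change of 1 or more in size and 3 within 10 Mb of Lmna. Fewer libraries then estimated the spread, and 13326 genes passed the count filter. RLE size factors and the filter of over 1 CPM in at least 4 libraries called 24 and 25 genes. Leaving out 1 pool at a time gave 3 to 25 genes called higher, 4 to 20 lower, 2 to 13 with a log2 fold change of 1 or more in size and 0 to 5 within 10 Mb of Lmna; the cause was not tested.

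The log2 fold change turned sign without 1 pool for Cdh5 (-0.059 to 0.010 over the 8 fits, turned without lamin C-only pool 4 or wild-type Lmna pool 1), Lmnb1 (-0.16 to 0.098, turned without wild-type Lmna pool 1) and Cry1 (-0.29 to 0.044, turned without wild-type Lmna pool 4), none of them called; the cause was not tested. A replicate block by pool number called 32 genes, 19 of them lower, and 21 of the 25. The labels do not say whether the numbers pair the pools, and 4 pools a group are too few to settle it. Deviations from the group mean correlated between -0.017 and 0.021 for same-numbered pools and between -0.059 and 0.050 for other pairs. Of 4 lamin C-only pools, 1 correlated best with its own number. With 4 pools a group and a median SE of 0.11, small changes of low genes were not detectable.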
